A study of Mus musculus with 8 samples.

Results

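RNA-seq values were examined for 9 genes of the insulin, AKT, mTOR and FOXO pathway in the neonatal mouse heart, namely Insr, Irs1, Irs2, Pik3ca, Akt1, Akt2, Mtor, Foxo1 and Foxo3. They were chosen by name, as the central kinases, adaptors and transcription factors of the pathway. Each symbol matched 1 locus among the 80155 loci of the series, of which 39614 carry a gene symbol. The hearts came from male Hsd:ICR(CD-1) mice, an outbred stock, with 4 mice at postnatal day 1 (P1) and 4 mice at postnatal day 7 (P7). None of the mice carried a labelled genotype or treatment, each heart was 1 library, and the atrial appendages had been removed. The comparison of P7 with P1 asked how the heart changes over the first postnatal week, in which the mouse heart loses its regenerative capacity. The replicate numbers in the labels name separate mice.

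Insulin and the insulin-like growth factors bind receptor tyrosine kinases, of which Insr is one, and these phosphorylate the adaptors Irs1 and Irs2. The adaptors recruit PI3K, the lipid product of PI3K brings AKT to the membrane, and active AKT promotes glucose uptake, turns on the growth-promoting kinase mTOR and drives the FOXO transcription factors out of the nucleus. In the heart the pathway is known for postnatal growth of cardiomyocytes and for glucose uptake. These signals act largely through phosphorylation, which transcript levels do not measure.

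Promoter windows from RefSeq (GRCm38.p6), 250 bases before to 50 bases after an annotated start, were found for 8 of the 9 genes. Bases upstream of the start are printed for Akt1 (250), Akt2 (250) and Foxo3 (190, those before the GENCODE M21 start, which lies further upstream), because these were the 3 genes whose P7 hearts all lay above the P1 hearts. They run 5′ to 3′ on the strand of the gene, and capitals mark the FOXO core motif GTAAACA, the GC box GGGCGG or the E-box CACGTG, each searched on both strands. Akt1 is on the minus strand at chr12:112674885-112675134, Akt2 on the plus strand at chr7:27591302-27591551 and Foxo3 on the minus strand at chr10:42276756-42276945.
Akt1: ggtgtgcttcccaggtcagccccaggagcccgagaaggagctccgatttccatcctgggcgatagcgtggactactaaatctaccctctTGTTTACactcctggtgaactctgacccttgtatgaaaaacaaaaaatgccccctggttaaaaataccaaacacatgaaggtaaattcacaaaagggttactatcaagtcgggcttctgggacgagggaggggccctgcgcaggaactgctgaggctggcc
Akt2: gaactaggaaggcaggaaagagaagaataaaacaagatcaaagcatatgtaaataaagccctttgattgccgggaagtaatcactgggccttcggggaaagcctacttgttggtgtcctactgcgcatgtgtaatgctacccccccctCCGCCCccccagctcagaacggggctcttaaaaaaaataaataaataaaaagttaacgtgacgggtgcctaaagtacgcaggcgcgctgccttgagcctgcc
Foxo3: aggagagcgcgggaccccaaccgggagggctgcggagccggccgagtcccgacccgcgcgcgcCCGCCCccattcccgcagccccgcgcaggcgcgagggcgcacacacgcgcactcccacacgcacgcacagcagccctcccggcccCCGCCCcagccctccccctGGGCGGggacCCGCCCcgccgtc
The Akt1 stretch held 1 FOXO core, as TGTTTAC, and no GC box. The Akt2 stretch held 1 GC box and the Foxo3 stretch held 4, while the full Foxo3 window held 5. None of the 3 stretches held the E-box. Over all 32851 windows of 300 bases, 3.65% held the FOXO core, 35.7% the GC box and 7.15% the E-box. The GC content was 52% over the printed Akt1 bases, 48.8% over those of Akt2 and 81.6% over those of Foxo3. Among the windows of the other genes, those of Irs1 and Irs2 held 1 E-box each, and those of Irs1, Irs2, Pik3ca, Mtor and Foxo1 held 1 to 5 GC boxes. A second RefSeq start of Akt1 had a window with 79.7% GC and 5 GC boxes, and 3 further starts of Akt2 had none of the motifs. A match is a run of letters and not a measured binding site.

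The values are FPKM, fragments scaled to the length of the locus and to the mapped fragments of the library, so levels of different genes can be compared per length. Steps in the low values gave the FPKM worth of 1 fragment, which differed by up to 1.64-fold between hearts, and the absolute depth is unknown. Loci at FPKM of at least 1 numbered 28662 in P1 replicate 3 and 20269 to 22292 in the other 7 hearts. All 6 cardiomyocyte markers were detected, with a summed level of 5204 to 10194 FPKM in P1 and 7306 to 11038 in P7, and 0 of 6 passed the test. The 6 fibroblast markers summed to 450.04 to 812 FPKM in P1 and 1048 to 1301 in P7, and 4 of 6 were higher in P7. The 6 endothelial markers summed to 91.0 to 153 and 124 to 189 FPKM, with 2 of 6 higher, and the 6 macrophage and leukocyte markers to 21.7 to 26.7 and 27.3 to 39.4 FPKM, with 0 of 6 passing. The 6 smooth muscle and pericyte markers summed to 294 to 611 and 246 to 377 FPKM, with 1 of 6 higher. Acta2 in that list and the endothelial marker Emcn had every P7 heart below every P1 heart, without passing (limma adjusted p = 0.126 and 0.244). The red cell, adipocyte, lung epithelium and cycling cell markers had overlapping sums and none passed. Every marker list had overlapping sums at the 2 stages apart from the fibroblast and the macrophage and leukocyte lists. In the macrophage and leukocyte list only C1qa had every P7 heart above every P1 heart. Mrc1 in that list had a lower mean in P7 (8.92 FPKM in P1 and 7.91 in P7). No marker with a locus was at 0 in all hearts.

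Akt2 was the only 1 of the 9 genes that passed both thresholds, a limma adjusted p under 0.05 over all 43172 tested loci and mean levels that differ by 1.5-fold or more. Its mean level was 2.05 times as high in P7 as in P1. The mean levels of Akt1 and Foxo3 were 2.03 and 2.07 times as high with no overlap between hearts, but missed the adjusted threshold. Irs2 (1.72) and Irs1 (1.35) had higher means with overlapping hearts, and Insr, Pik3ca and Mtor had ratios of 1.03 to 1.07. All 9 genes passed the filter on low values, which asks that 1 heart or more reach an FPKM of 1. The share that rose was 1 of 9 (11.1%), beside 7.74% of the 17960 annotated tested loci and 3.45% of all tested loci, and 0 of 9 fell, beside 0.401% of annotated loci and 0.371% of all tested loci. In 3 of 9 genes the P7 hearts all lay above the P1 hearts, beside 17.3% of annotated loci. The log2 fold change was positive in 9 of 9, beside 67.6% of annotated loci. With 1 to 3 genes behind these shares, they are given as a description. In bulk tissue, a change in the number of expressing cells and a change in RNA per cell cannot be told apart.

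**Figure D1:**
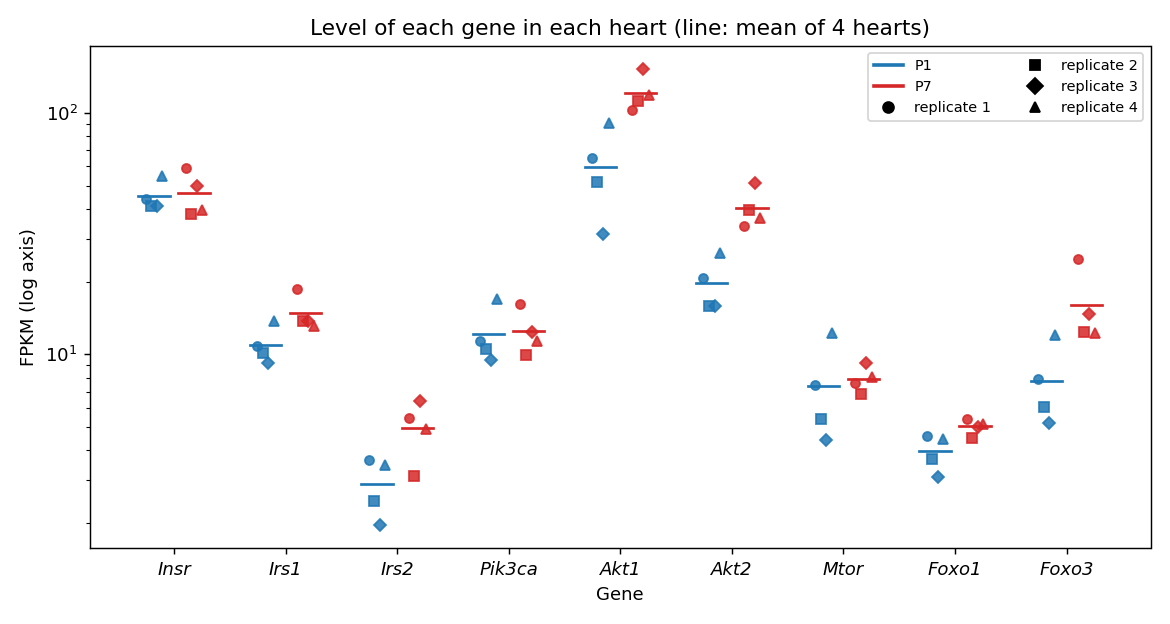
FPKM of each of the 9 genes in each heart, on a log axis, with P1 in blue, P7 in red, the marker shape giving the replicate and the line the mean of 4 hearts. For Akt1, Akt2 and Foxo3 all 4 P7 hearts sit above all 4 P1 hearts, while the hearts of the other 6 genes overlap.

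Insr encodes the insulin receptor. Its level was 44.2, 41.1, 41.2 and 54.9 FPKM in P1 replicates 1 to 4 and 58.9, 38.1, 49.9 and 39.4 FPKM in P7 replicates 1 to 4. The highest and the lowest heart were both P7 hearts, so the stages overlapped fully. The means were 45.3 ± 6.51 and 46.6 ± 9.78 FPKM (SD, n = 4), and the log2 fold change was 0.03 (SE 0.20, 95% interval -0.41 to 0.46, limma adjusted p = 0.945). The interval leaves room for changes of either sign, and the sign itself turned to -0.23 when hearts were scaled by median ratios. The locus spans chr8:3150922-3279617 on the minus strand and overlaps loci of Gm16180, which were at most 4.64 FPKM.

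Irs1 and Irs2 encode the adaptors that link the receptor to PI3K. Irs1 was at 10.8, 10.1, 9.21 and 13.7 FPKM in the P1 hearts and at 18.6, 13.7, 13.8 and 13.1 FPKM in the P7 hearts. Only P1 replicate 4 reached the P7 range, and P7 replicate 1 stood above the other P7 hearts. The means were 10.96 ± 1.96 and 14.8 ± 2.57 FPKM (SD, n = 4), with a log2 fold change of 0.40 (SE 0.19, 95% interval -0.01 to 0.82, limma adjusted p = 0.286). The Irs1 locus, chr1:82233101-82291627 on the minus strand, overlaps Gm9747, which was listed at 15.0 to 32.7 FPKM, above Irs1 itself. Whether strand was used in assigning fragments is not given in the sources used here, so fragments of these 2 loci cannot be told apart.

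Irs2 had the lowest mean level of the 9 genes at both stages. It was at 3.65, 2.46, 1.95 and 3.47 FPKM in P1 and at 5.44, 3.13, 6.38 and 4.89 FPKM in P7. P7 replicate 2 fell inside the P1 range and the other 3 P7 hearts were above it. The means were 2.88 ± 0.813 and 4.96 ± 1.37 FPKM (SD, n = 4), a log2 fold change of 0.61 (SE 0.23, 95% interval 0.11 to 1.11), which did not pass after adjustment (limma adjusted p = 0.178). The Irs2 locus in the files, chr8:10981154-11054541 on the minus strand, spans 73388 bases, while the GENCODE M21 gene spans 23778 bases, so its value covers more than the annotated gene.

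Pik3ca encodes the catalytic subunit p110-alpha of PI3K. Its level was 11.3, 10.5, 9.48 and 16.9 FPKM in P1 and 16.1, 9.95, 12.4 and 11.3 FPKM in P7. P1 replicate 4 was the highest of the 8 hearts, and the 2 stages overlapped. The means of 12.1 ± 3.31 and 12.4 ± 2.62 FPKM (SD, n = 4) gave a log2 fold change of 0.05 (SE 0.22, 95% interval -0.42 to 0.52, limma adjusted p = 0.897), which was -0.19 under median-ratio scaling. The locus is chr3:32397395-32468486 on the plus strand.

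Akt1 encodes the broadly expressed AKT isoform known for growth. It had the highest mean of the 9 genes at both stages. Its level was 65.3, 51.7, 31.5 and 90.6 FPKM in P1 and 103, 112, 153 and 119 FPKM in P7. The P1 hearts spread widely, from replicate 3 to replicate 4, yet none reached the lowest P7 heart. The means were 59.8 ± 24.8 and 121 ± 21.7 FPKM (SD, n = 4), with a log2 fold change of 1.09 (SE 0.28, 95% interval 0.48 to 1.71, limma adjusted p = 0.0538). Without P1 replicate 4 the log2 fold change was 1.32 with a limma adjusted p of 0.0121. Without any 1 of the other 7 hearts it was 0.82 to 1.17 with adjusted p of 0.0797 to 0.150. The fold change of 0.82 was that without P1 replicate 3. The locus is chr12:112653799-112674884 on the minus strand, and no other locus overlaps it.

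Akt2 encodes the AKT isoform known for insulin-stimulated glucose uptake. Its level was 20.8, 15.9, 15.8 and 26.3 FPKM in P1 and 33.9, 39.6, 51.5 and 36.7 FPKM in P7. The lowest P7 heart, replicate 1, lay above the highest P1 heart, replicate 4. The means were 19.7 ± 4.96 and 40.4 ± 7.74 FPKM (SD, n = 4), and the log2 fold change was 1.01 (SE 0.22, 95% interval 0.55 to 1.48, limma adjusted p = 0.0263). The call was lost when P1 replicate 1, 2 or 3 was left out (adjusted p = 0.0516, 0.103 and 0.0687) and when P7 replicate 1, 3 or 4 was left out (adjusted p = 0.0602, 0.0780 and 0.0523), with log2 fold changes of 0.89 to 1.16 over all 8 omissions. The summed fibroblast markers and the summed macrophage and leukocyte markers also separated the stages, and their part in the Akt2 result was not tested. The locus, chr7:27591552-27640826 on the plus strand, has the same bounds as the GENCODE M21 gene.

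Mtor encodes the kinase shared by both mTOR complexes. It was at 7.47, 5.38, 4.42 and 12.2 FPKM in P1 and at 7.63, 6.86, 9.17 and 8.02 FPKM in P7. The 4 P7 hearts lay inside the P1 range, which ran from replicate 3 to replicate 4. The means were 7.38 ± 3.48 and 7.92 ± 0.965 FPKM (SD, n = 4), a log2 fold change of 0.17 (SE 0.26, 95% interval -0.39 to 0.73, limma adjusted p = 0.694). The sign turned under median-ratio scaling and under GC correction, to -0.055 in each. The Mtor locus, chr4:148448611-148557778 on the plus strand, overlaps 5 loci, Angptl7 and U6 among them, at 0 to 6.62 FPKM.

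Foxo1 and Foxo3 encode transcription factors that AKT phosphorylation keeps out of the nucleus. Foxo1 was at 4.58, 3.66, 3.09 and 4.45 FPKM in P1 and at 5.40, 4.51, 5.0006 and 5.14 FPKM in P7. P1 replicate 1 lay above P7 replicate 2, and the other hearts did not cross. The means were 3.95 ± 0.699 and 5.01 ± 0.375 FPKM (SD, n = 4), with a log2 fold change of 0.29 (SE 0.18, 95% interval -0.10 to 0.68, limma adjusted p = 0.391). The locus is chr3:52268337-52352902 on the plus strand and overlaps Gm20402, which was at most 1.34 FPKM.

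Foxo3 was at 7.88, 6.04, 5.18 and 12.0 FPKM in P1 and at 24.8, 12.4, 14.7 and 12.3 FPKM in P7. The highest P1 heart, replicate 4, came within 1 FPKM of the lowest P7 heart, also replicate 4, and P7 replicate 1 was the highest of all. The means were 7.76 ± 3.02 and 16.03 ± 5.95 FPKM (SD, n = 4), and the log2 fold change was 0.96 (SE 0.27, 95% interval 0.37 to 1.56, limma adjusted p = 0.0767). Without P1 replicate 4 it was 1.17 with a limma adjusted p of 0.0192, and without any 1 of the other 7 hearts it was 0.74 to 1.06 with adjusted p of 0.0818 to 0.211. The locus is chr10:42181259-42276755 on the minus strand with no other locus over it.

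**Figure D2:**
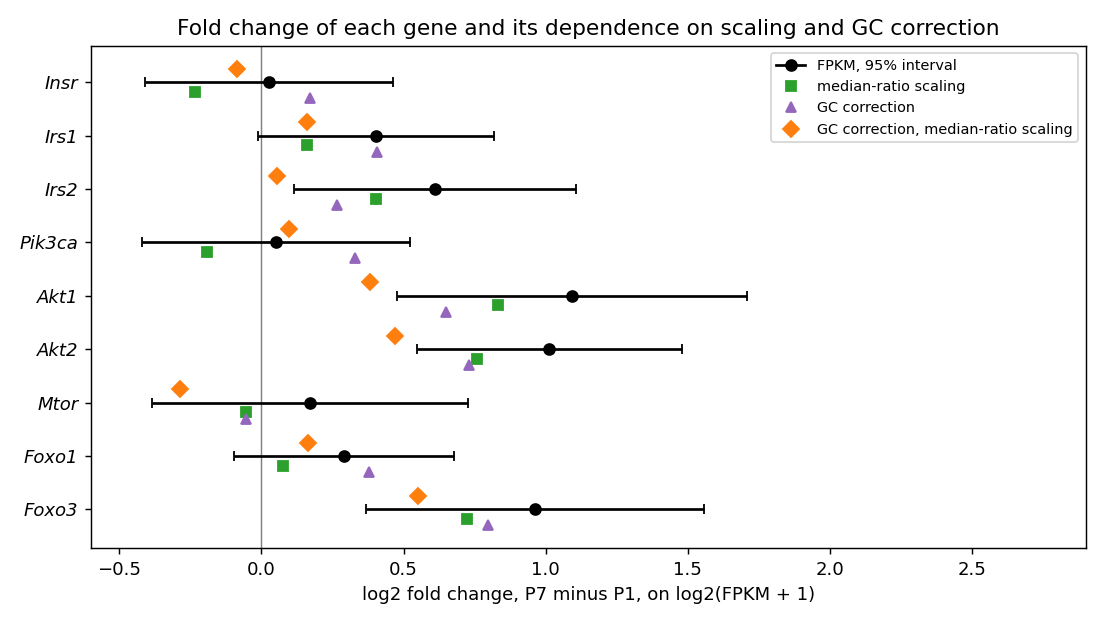
The log2 fold change of P7 over P1 for the 9 genes, with the limma estimate and its 95% interval in black and the estimates after median-ratio scaling, GC correction and both as coloured symbols. Akt1, Akt2, Foxo3, Irs1, Irs2 and Foxo1 stay above 0 in all 4, while Insr, Pik3ca and Mtor change sign in at least 1.

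The fold changes depended on how the libraries were scaled. The median-ratio factors ran from 0.779 in P1 replicate 3 to 1.30 in P7 replicate 3, with 1.16 in P1 replicate 4. The levels and overlaps of single hearts given here are those of the deposited FPKM, before division by these factors. The median log2 fold change of annotated tested loci was 0.19 as deposited and -0.01 after median-ratio scaling, and the calls over annotated loci were 95.1% higher as deposited, 65.5% higher under median-ratio scaling and 69.8% higher under quantile normalization. Relative to the median of 0.19, the log2 fold changes were 0.90 for Akt1, 0.82 for Akt2, 0.77 for Foxo3, 0.42 for Irs2, 0.21 for Irs1 and 0.10 for Foxo1. They were -0.02 for Mtor, -0.14 for Pik3ca and -0.16 for Insr.

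The fold changes also moved with base composition. Over annotated tested loci the median log2 fold change rose from -0.041 in the lowest to 0.62 in the highest of 5 groups of loci by transcript GC content, and 0.972% and 26.6% of loci in these 2 groups were higher in P7. Akt1 (59.7% GC), Irs2 (56.6%) and Akt2 (55.2%) belonged to the highest group. Mtor (54.2%) and Foxo3 (53.2%) belonged to the group below, in which 9.15% of loci were higher, and Irs1 (50.3%), Foxo1 (48.5%), Insr (46.8%) and Pik3ca (41.2%) had lower GC. After correction for GC content the log2 fold changes were 0.80 for Foxo3, 0.73 for Akt2 and 0.65 for Akt1, and 0 of the 9 genes passed (Akt2 adjusted p = 0.102).

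**Figure D3:**
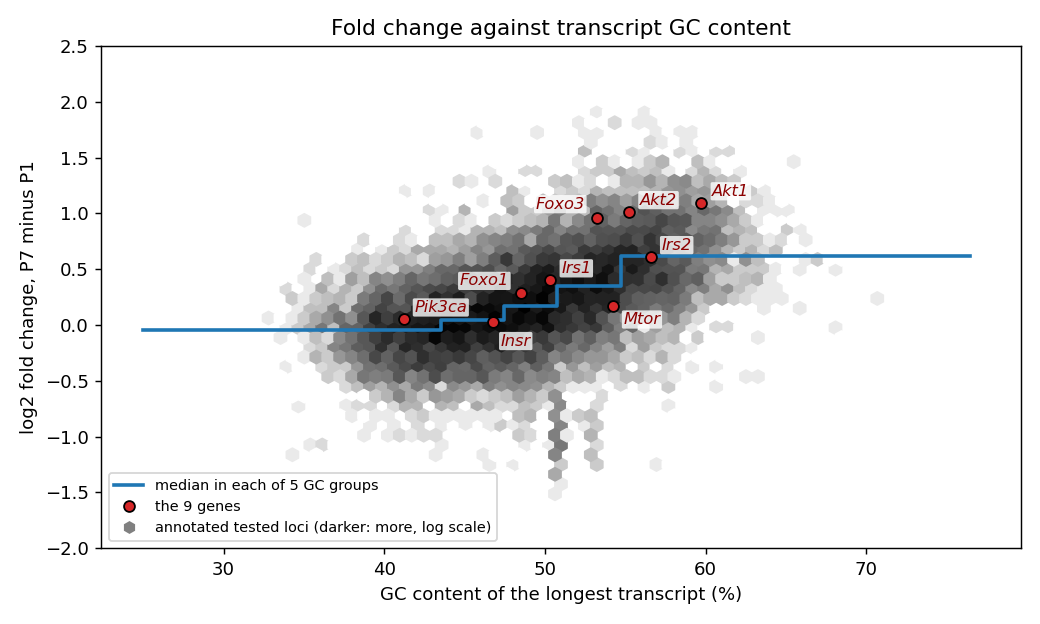
The log2 fold change of P7 over P1 against transcript GC content, with annotated tested loci in grey (darker where more loci lie, on a log scale), the median in each of 5 GC groups as a blue line and the 9 genes in red. The line climbs from -0.041 to 0.62. Akt1, Akt2, Foxo3, Irs1, Foxo1 and Pik3ca lie above it, while Mtor, Irs2 and Insr lie below it, Irs2 and Insr closely.

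In P1 the order of mean levels per length was Akt1, Insr, Akt2, Pik3ca, Irs1, Foxo3, Mtor, Foxo1 and Irs2. Of the neighbours in this order, Insr and Akt2 had non-overlapping hearts, and the other neighbouring pairs overlapped. In P7 the order was Akt1, Insr, Akt2, Foxo3, Irs1, Pik3ca, Mtor, Foxo1 and Irs2, so that Foxo3 moved from the 6th to the 4th place and Pik3ca from the 4th to the 6th. Neighbouring hearts did not overlap between Akt1 and Insr, Akt2 and Foxo3, Pik3ca and Mtor, and Mtor and Foxo1.

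Ratios of 2 genes within a heart do not depend on how that heart was scaled. The Akt2 to Akt1 ratio was 0.318, 0.307, 0.503 and 0.290 in the P1 hearts and 0.329, 0.354, 0.337 and 0.309 in the P7 hearts. Apart from P1 replicate 3, the hearts of both stages held about the same ratio, and the mean log2 ratio differed by -0.06 (exact permutation test, two-sided, p = 0.971). Without P1 replicate 3 the difference was 0.12 (exact permutation p = 0.0857). The Irs2 to Irs1 ratio averaged 0.262 ± 0.0538 in P1 and 0.339 ± 0.102 in P7 (SD, n = 4), with overlapping hearts (exact permutation p = 0.257).

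The Foxo3 to Foxo1 ratio was 1.72, 1.65, 1.67 and 2.69 in P1 and 4.59, 2.74, 2.94 and 2.39 in P7. P1 replicate 4 lay above P7 replicate 4, and the other P1 hearts lay below every P7 heart. The mean log2 ratio was higher by 0.70 in P7, which did not pass (exact permutation p = 0.0571, 0.0952 adjusted over the 5 ratios). Without P1 replicate 4 the difference was 0.87 (exact permutation p = 0.0286, the smallest this test can give), and the other 7 omissions gave exact permutation p of 0.0571 to 0.114. Under GC correction it was 0.40 (exact permutation p = 0.2).

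Insr was set against Igf1r, the receptor of the insulin-like growth factors, and the ratio averaged 2.38 ± 0.175 in P1 and 2.10 ± 0.143 in P7 (SD, n = 4). The log2 difference of -0.18 did not pass (exact permutation p = 0.0571, 0.0952 adjusted) and was -0.089 under GC correction. Rictor and Rptor, which define the 2 complexes that Mtor forms, had a ratio of 1.78, 2.43, 2.54 and 1.57 in P1 and 1.70, 1.01, 1.02 and 1.1 in P7. P7 replicate 1 lay inside the P1 range and the other 3 P7 hearts below it, and the log2 difference was -0.79 (exact permutation p = 0.0571, 0.0952 adjusted). Without P7 replicate 1 it was -0.96 (exact permutation p = 0.0286), the other 7 omissions gave exact permutation p of 0.0571 to 0.114, and GC correction brought it to -0.098 (exact permutation p = 0.629). None of the 5 ratios passed, and 4 hearts against 4 cannot give a p below 0.0286.

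**Figure D4:**
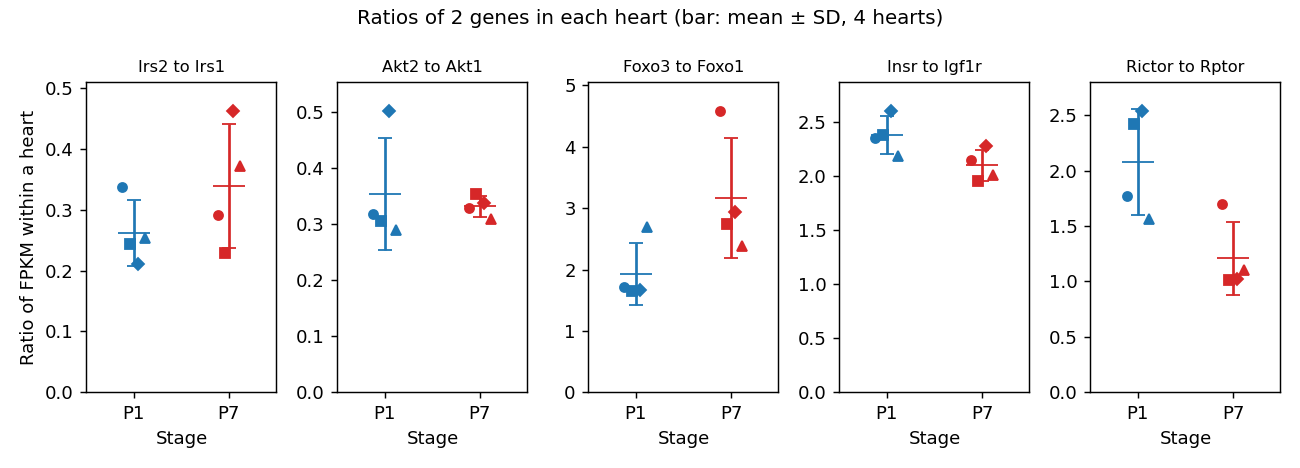
Ratio of the FPKM of 2 genes within each heart for 5 pairs, P1 in blue and P7 in red, with the marker shape giving the replicate and the bar the mean ± SD of 4 hearts. The Akt2 to Akt1 ratio is alike in 7 hearts and higher in P1 replicate 3, and in all 5 pairs at least 1 heart of one stage lies inside the range of the other.

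Across the 8 hearts, the log2 levels of the 9 genes correlated positively in all 36 pairs, with a median Pearson r of 0.726. The highest r was 0.991, for Irs1 with Foxo3, followed by 0.948 for Akt1 with Akt2, and the lowest was 0.233, for Insr with Akt2. Insr went with Pik3ca at an r of 0.921. The 2 stages and the scale of each heart enter every one of these values, so they are given as descriptions over 8 hearts. Among 11933 annotated loci with a mean of at least 1 FPKM, the locus with the highest r was Oxa1l for Akt1 (0.997), Naprt1 for Akt2 (0.995), Tspyl5 for Foxo3 (0.993), Foxo3 for Irs1 (0.991), Spry2 for Irs2 (0.991), Tbc1d7 for Foxo1 (0.991), Cyp4f13 for Pik3ca (0.990), Rpl6 for Mtor (0.987) and Tmem87b for Insr (0.983).

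The wider pathway was followed with 3 lists that hold the 9 genes together with their ligands, partners, inhibitors and targets. Of 36 tested genes in the insulin, PI3K and AKT list, 7 rose and 0 fell (19.4% higher, median log2 fold change 0.29). Of 43 tested genes in the mTOR list, 5 rose and 0 fell (11.6%, median 0.43). Of 29 tested genes in the FOXO and target list, 7 rose and 0 fell (24.1%, median 0.63). Over annotated tested loci the share higher was 7.74% and the median 0.19. After GC correction the counts higher were 0, 1 and 3, beside 2.12% of annotated loci, and when all 8 hearts had to reach an FPKM of 1 they were 12 of 34, 12 of 39 and 12 of 26, beside 19% of annotated loci. Under median-ratio scaling 1 gene of the insulin list (Grb10) and 1 of the mTOR list (Rictor) were lower, and under quantile normalization Igf2 and Rictor were, beside 4.08% and 3.32% of annotated loci. The fibroblast and the endothelial markers above also rose in part, though the endothelial marker Emcn was lower in every P7 heart without passing. The summed macrophage and leukocyte markers were higher in every P7 heart. The part of these cells in the list counts was not tested.

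**Figure D5:**
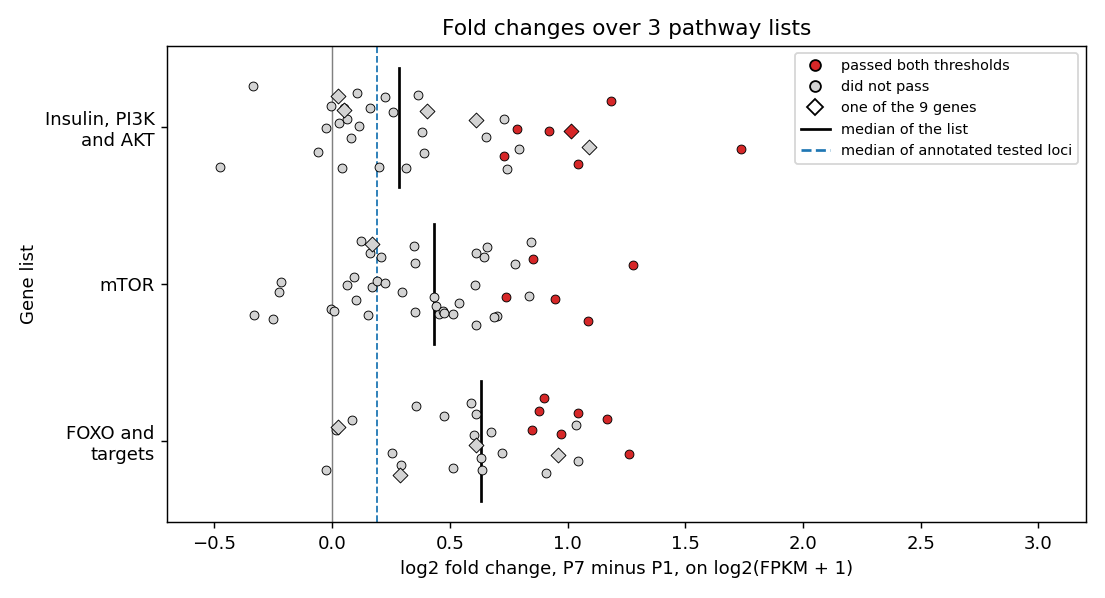
The log2 fold change of each tested gene in the 3 lists, in red where both thresholds were passed, as a diamond for the 9 genes, with the list's median as a black line and the median of annotated tested loci (0.19) dashed. The red points, 7, 5 and 7 by list, all lie on the positive side.

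Insulin, the ligand made by the pancreas, had transcripts near 0 in the heart. Ins1 was listed at 0 in 7 of 8 hearts and at 0.0772 FPKM in P1 replicate 2, and Ins2 did not exceed 0.969 FPKM, so neither was tested. Igf1 was at 19.7 ± 4.09 FPKM in P1 and 19.1 ± 1.59 in P7 (SD, n = 4, log2 fold change -0.025, limma adjusted p = 0.944). Igf2, a fetal growth factor, was at 640, 548, 551 and 445 FPKM in P1 and at 425, 356, 426 and 355 FPKM in P7. The P7 hearts all lay below the P1 hearts, and the log2 fold change of -0.48 did not pass (limma adjusted p = 0.236), while under quantile normalization it was -0.64 and passed (limma adjusted p = 0.0393). The receptor Igf1r averaged 19.3 ± 4.12 and 22.1 ± 3.72 FPKM (limma adjusted p = 0.564).

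Between receptor and AKT, Socs3, an inhibitor of cytokine and insulin receptor signaling, was at 1.95, 1.76, 1.74 and 1.30 FPKM in P1 and at 4.72, 3.33, 4.89 and 3.54 in P7 (log2 fold change 0.92, limma adjusted p = 0.0225). Pik3ip1, which inhibits PI3K, was at 12.6, 6.34, 7.83 and 14.8 FPKM in P1 and at 80.2, 29.1, 28.03 and 23.4 in P7, with replicate 1 far above the other P7 hearts (log2 fold change 1.74, limma adjusted p = 0.0241). Socs3 and Pik3ip1, which had the smallest adjusted p in this list, are thus both known as inhibitors. Slc2a4, which encodes the insulin-responsive glucose transporter that AKT signaling brings to the cell surface, was at 118, 102, 77.3 and 165 FPKM in P1 and at 239, 200.3, 280.2 and 213 FPKM in P7. All P7 hearts were above the P1 hearts (log2 fold change 1.05, limma adjusted p = 0.0346). Under GC correction 0 of the 36 tested genes of this list passed, so Socs3, Pik3ip1 and Slc2a4 lost their calls.

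Around Mtor, Ddit4, a stress-induced inhibitor of mTOR complex 1, was at 4.96, 4.46, 3.01 and 2.43 FPKM in P1 and at 14.1, 10.97, 9.31 and 7.25 FPKM in P7 (log2 fold change 1.28, limma adjusted p = 0.0184). Its relative Ddit4l averaged 0.735 ± 0.344 and 2.11 ± 0.457 FPKM (limma adjusted p = 0.0424). Tfeb, a lysosomal transcription factor that mTOR holds in the cytoplasm, rose from 12.6 ± 3.31 to 27.3 ± 3.32 FPKM (log2 fold change 1.09, limma adjusted p = 0.0197). Ulk1, the autophagy kinase that mTOR inhibits, rose from 5.49 ± 1.51 to 11.4 ± 2.28 FPKM (log2 fold change 0.94, limma adjusted p = 0.0324). Under GC correction only 1 of the 43 tested genes of the mTOR list passed, beside 2.12% of annotated loci higher. The mTOR partners did not pass, Rptor with a log2 fold change of 0.35 (limma adjusted p = 0.441) and Rictor with -0.33 (limma adjusted p = 0.418), though Rictor was lower under median-ratio scaling (-0.57, limma adjusted p = 0.0397). Eif4ebp1, the translational repressor that mTOR phosphorylates, was at 159, 140.2, 129 and 121 FPKM in P1 and at 223, 192, 228 and 197 FPKM in P7, with no overlap but without passing (log2 fold change 0.61, limma adjusted p = 0.0952).

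Of the FOXO family, Foxo4 passed where Foxo1 and Foxo3 did not. It was at 5.59, 4.23, 3.87 and 6.88 FPKM in P1 and at 17.0, 10.8, 13.4 and 10.02 FPKM in P7, all P7 hearts above the P1 hearts (log2 fold change 1.17, limma adjusted p = 0.0188). Whether its change differs from those of Foxo1 and Foxo3 was not tested. Foxo6 averaged 1.34 ± 0.597 and 1.81 ± 0.452 FPKM (limma adjusted p = 0.481). Pdk4, a FOXO target that restrains glucose oxidation, was at 40.9, 34.3, 27.5 and 55.8 FPKM in P1 and at 124, 110.8, 58.8 and 94.2 in P7 (log2 fold change 1.26, limma adjusted p = 0.0271). Gadd45a, a target in the DNA damage response, rose from 2.56 ± 0.585 to 6.49 ± 2.12 FPKM (log2 fold change 1.04, limma adjusted p = 0.0295), and the transcriptional repressor Bcl6 from 0.485 ± 0.106 to 1.81 ± 0.596 FPKM (log2 fold change 0.90, limma adjusted p = 0.0323). With this P1 mean and SD, Bcl6 lay under 1 FPKM in P1 and passed the filter on low values only through P7 hearts. Its call, counted among the 7 of the FOXO list, is therefore given as a description. Under GC correction 3 of the 29 tested genes of the FOXO list passed, beside 2.12% of annotated loci higher. Of the targets best known from liver, G6pc and Igfbp1 stayed under 1 FPKM in every heart and were not tested, and Pck1 reached 2.03 FPKM in P7 replicate 4 but at most 0.392 in the other 7 hearts (log2 fold change 0.25, limma adjusted p = 0.632).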

How the data were processed

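RNA was taken from 8 hearts, 4 at P1 and 4 at P7, and depleted of ribosomal RNA. ScriptSeq v2 libraries were sequenced in pairs of reads on a HiSeq instrument. Alignment to GRCm38 and annotation with Ensembl release 70 were done by the authors' sequencing provider, and the authors deposited FPKM per locus. The aligner, its version and the use of strand are not given in the sources used here. The files give FPKM alone, so the absolute depth is unknown and no counting interval is given. Locus starts were converted to count from 1.

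From the deposited FPKM, loci that reached 1 in any of the 8 hearts (43172, of which 17960 carry a symbol) were compared on log2(FPKM + 1) with limma 3.58.1 in R 4.3.3 (lmFit, eBayes with trend), using all 8 hearts and no covariates, with Benjamini-Hochberg adjustment over all tested loci. The study gives thresholds but names no test. Fold changes with a pseudocount of 1 understate the change of low genes. The study's thresholds defined a call, namely an adjusted p under 0.05 with means that differ by 1.5-fold or more. Symbols were matched without regard to case, and the locus with the highest mean was used where several share one. Within-heart ratios were compared with exact two-sided permutation tests over 70 assignments. Other steps used scipy 1.17.1, statsmodels 0.14.6 and pandas 2.3.3 under Python 3.11.15. The fit was also run on simulated data with equal, independent noise and no scale or GC differences between hearts. That run checks the code and not the calls made here.

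The 9 genes and the gene lists were chosen with earlier results of these data known. Named beside them were the 4 called genes with the smallest adjusted p in each list, the partners in the ratios, the other FOXO genes, 4 ligands, 3 targets or substrates (Slc2a4, Eif4ebp1, Pdk4) and the locus most correlated with each gene. One gene that the rule names is not reported here. G6pc, Igfbp1, Pck1, Grb10 and Rps6 were named after their values were seen. Alternatives were a pseudocount of 0.1, other filters, median-ratio scaling, quantile normalization, a replicate block, GC correction (lowess, span 0.3, longest GENCODE M21 transcript), eBayes without trend, sample quality weights, summed loci and each heart left out. GC correction with median-ratio scaling was added after seeing the data.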

Additional observations from a re-analysis of the deposited data

Results flagged for a closer look

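Of 28 groups of 4 hearts (the 9 genes and 5 ratios at each stage), 4 had 1 heart set far apart from the rest, where chance at 1 in 20 gives 1.4. The groups share hearts and genes and are not independent, so these counts are a description and not a test. The gap share divides the distance from that heart to the next one by the whole spread of its group, and Dixon's 95% critical value was exceeded in each. For Irs1, P7 replicate 1 at 18.6 FPKM stood above the other P7 hearts at 13.1 to 13.8, with a gap share of 0.881. For the Akt2 to Akt1 ratio, P1 replicate 3 at 0.503 stood above 0.290 to 0.318, with a gap share of 0.870. P1 replicate 3 is also the heart with 28662 loci at FPKM of at least 1. For the Foxo3 to Foxo1 ratio, P1 replicate 4 at 2.69 stood above 1.65 to 1.72, with a gap share of 0.931. For the Rictor to Rptor ratio, P7 replicate 1 at 1.70 stood above 1.01 to 1.1, with a gap share of 0.875.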

How the results depend on the processing

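Of the 9 genes, 1 passed both thresholds in the fit reported, 0 with no filter, under GC correction, under GC correction with the replicate block and under GC correction with median-ratio scaling, 2 under median-ratio scaling or quantile normalization, and 3 when every heart had to reach an FPKM of 1 or with sample quality weights. Beside these counts, the share of annotated loci higher was 7.74% in the fit reported, 0.485% with no filter and 2.12% under GC correction. It was 1.93% under GC correction with the replicate block and 3.25% under GC correction with median-ratio scaling. Median-ratio scaling gave 7.74%, quantile normalization 7.67%, the filter on every heart 19% and sample quality weights 15.4%. Leaving out 1 heart gave 0 to 3 of the 9 genes, with 3 without P1 replicate 4, 1 without P7 replicate 2 and 0 without any other heart. The share of annotated loci higher moved too, at 15.4% without P1 replicate 4 and 5.48% without P7 replicate 2. It was 0.874% to 4.43% without any other heart. Akt2 kept its direction in all 21 alternatives (log2 fold change 0.47 to 1.16, adjusted p 0.00490 to 0.177) and lost its call in 10. Akt1 (0.38 to 1.32) passed in 5 and Foxo3 (0.55 to 1.17) in 3, and both kept their direction in all 21, as did Irs1, Irs2 and Foxo1. The log2 fold change of Insr became -0.23 (median-ratio), -0.21 (quantile) and -0.087 (GC with median-ratio), that of Pik3ca -0.19 (median-ratio) and -0.20 (quantile), and that of Mtor -0.055 (median-ratio), -0.082 (quantile), -0.055 (GC, with or without the block) and -0.29 (GC with median-ratio). With 1 heart left out, Insr ranged from -0.092 to 0.12, Pik3ca from -0.070 to 0.21 and Mtor from -0.010 to 0.42.

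In the order insulin, mTOR and FOXO list, 7, 5 and 7 genes passed. The counts were 0, 0 and 0 with no filter, 12, 12 and 12 with the filter on every heart, 0, 1 and 3 under GC correction, 1, 1 and 4 under GC correction with the block, 2, 2 and 4 under GC correction with median-ratio scaling (1 insulin gene, Igf2, and 1 mTOR gene, Rps6, being lower), 4, 3 and 4 without trend, and 11, 13 and 11 with sample quality weights. The FOXO list gave 4 under median-ratio scaling and 4 under quantile normalization. Leaving out 1 heart gave 0 to 11, 0 to 9 and 0 to 12, beside 0.874% to 15.4% of annotated loci higher. All of these were highest without P1 replicate 4. Over annotated loci, 1390 were higher and 72 lower of 17960 in the fit reported. The counts were 2424 and 149 of 12730 with the filter on every heart, and 192 and 39 of 39614 with no filter. Of 17960, they were 381 and 27 under GC correction and 584 and 269 with median-ratio scaling added. Also of 17960, median-ratio scaling alone gave 1390 and 733 and quantile normalization 1378 and 596. The fit without trend gave 905 and 36, and sample quality weights 2773 and 178, again of 17960. The ratio Irs2 to Irs1 turned to -0.11 and Akt2 to Akt1 to 0.098 under GC correction, while Foxo3 to Foxo1 was 0.40, Insr to Igf1r -0.089 and Rictor to Rptor -0.098. With 1 heart left out, Akt2 to Akt1 ranged from -0.14 to 0.12, Foxo3 to Foxo1 from 0.50 to 0.87 and Rictor to Rptor from -0.96 to -0.68. The cause of these shifts was not tested.

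Replicate numbers are shared by the labels of both stages, and the deviations of same-numbered hearts correlated at 0.06, 0.22, -0.28 and -0.12. Differently numbered hearts correlated at -0.37 to 0.29, so these values cannot decide whether the numbers pair the hearts. With the replicate block, 1 of the 9 genes, 3 genes of the mTOR list and 4 of the FOXO list passed, and 5 of the insulin list, beside 970 higher and 82 lower of 17960 annotated loci. Depth is unknown, so differences in genes near 1 FPKM were not weighed against counting error.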
